A study of Saccharomyces cerevisiae with 5 samples.

Results

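The genes described here are the ATG genes of Saccharomyces cerevisiae, the family named for its members' roles in autophagy. They were chosen by name alone: every gene whose symbol is ATG followed by a number and that has a probe set for that gene only, whatever its signal. This gave 36 genes out of the 5656 genes measured, of which 17 belong to the core machinery, 8 are receptors and adaptors of selective autophagy and 11 are accessory genes. ATG44 is not matched to a probe set here and was not analysed, and the subunits once called ATG6 and ATG24 appear under their current symbols VPS30 and SNX4 with the partners of the pathway.

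The wild type was BY4741, a haploid MATa laboratory strain, with 3 biological replicates, and the mutant was the isogenic Δrsf2 strain, with 2. RSF2, also called ZMS1 (YJR127C), encodes a zinc-finger protein linked to growth on glycerol. Both strains were grown in 50 ml of rich medium with glycerol, a carbon source that requires respiration, until the A600 reached 0.6. The labels' treatment field also describes a shift from dextrose to glycerol medium but gives no minutes for these samples. Each replicate's poly(A) RNA was hybridised to 1 Affymetrix yeast array, and signals are in arbitrary units, rescaled so that every array has the same trimmed mean of 500. The labels do not say how many independent isolates of the deletion strain were used, so the p-values measure only the spread between these cultures.

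In autophagy a double membrane grows around a portion of cytoplasm, closes to an autophagosome and fuses with the vacuole, where the contents are broken down. The Atg1 kinase complex starts the process, vesicles that carry Atg9 and the lipid carrier Atg2 supply membrane, a phosphatidylinositol 3-kinase marks it, and ubiquitin-like conjugation anchors Atg8 in it. Receptors such as Atg32 for mitochondria or Atg19 for vacuolar enzymes tie a chosen cargo to Atg8 and to the scaffold Atg11. In yeast the process is held low by the TORC1 kinase while nutrients are plentiful, and mitophagy is best known from cells that respire on non-fermentable carbon.

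The deleted gene followed the labels. RSF2 had a scaled signal of 204, 254 and 416 in wild-type replicates 1 to 3, and the Δrsf2 arrays read 9.49 and 3.30. Both mutant arrays lay under the floor of 28.1 used in the fit, the 10th percentile of all single-gene values, which makes RSF2 at least 9.90-fold lower there (limma adjusted p = 0.514). The arrays were not of equal quality: the 3' to 5' signal ratio of ACT1 was 4.91 in Δrsf2 replicate 1 and 1.55 to 2.76 in the other 4. The CreX spike-in reached 52713 on the array of wild-type replicate 1 and 48446 on that of Δrsf2 replicate 1, with 2216 to 9326 on the rest. This gives a set of arrays with high and one with low spike-in signal, each holding both strains. Each set holds a single mutant array, Δrsf2 replicate 1 in the high set and replicate 2 in the low set. Differences within the sets therefore cannot be told apart from differences between the mutant replicates. The median of all genes on each array, relative to the wild-type mean, ran from -0.30 to 0.22 on the log2 scale in the wild type and was 0.00 and 0.01 in Δrsf2. Of the 5 MATa markers measured, the receptor gene STE2 was present at similar signal on every array, 137 to 180. The a-factor gene MFA1 stood at 16443 in Δrsf2 replicate 1 and at 164 to 417 elsewhere. The part of these differences between arrays in the values below was not tested.

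By value most ATG genes lay higher in Δrsf2, but the 2 mutant arrays did not show this alike, and no ATG gene passed the test. Of the 36 genes 28 had a positive log2 difference and 8 a negative one, with a median of 0.38 against 0.02 for all genes. With quantile normalisation 26 were positive, beside 44.5% of all genes, and with arrays centred on their medians 22, beside 38.7%; in the fit reported here it was 53.0% of all genes. Relative to the wild-type mean, 34 of the 36 were higher in Δrsf2 replicate 2, where 53.5% of all genes were, and 16 of the 36 in replicate 1, where 48.7% of all genes were. With limma, 0 of 36 ATG genes and 0 of 5656 genes (0%) had an adjusted p under 0.05, and adjusted p-values of the ATG genes ran from 0.502 to 1. At an unadjusted p under 0.05 there were 2 ATG genes, ATG11 and ATG16, or 5.56%, beside 4.38% of all genes.

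A size rule counted genes at least 2-fold apart whose groups did not overlap. It took in 3 ATG genes on the higher side, ATG9, ATG11 and ATG23, or 8.33%, where 3.22% of all genes met it. On the lower side it took in 0 ATG genes, where 2.49% of all genes did. With quantile normalisation the split was 1 higher and 1 lower, beside 2.00% and 4.01% of all genes, and with arrays centred on their medians also 1 and 1, beside 1.64% and 5.02%. ATG9 and ATG23 did not pass a filter at the 25th percentile of mean signal, which left 1 ATG gene on the higher side of 25, beside 1.74% of all genes that passed, and a filter at the 50th percentile left 0 of 15, beside 0.88%. Leaving out single arrays moved both the higher count and the share of all genes, but not in step. The count was 8 without wild-type replicate 3, beside 7.14% of all genes, and 17 without Δrsf2 replicate 1, beside 11.3%. Without Δrsf2 replicate 2 it was 5, beside 14.2% of all genes. The lower count became 3 without Δrsf2 replicate 2, beside 11.6% of all genes. It was 2 and 1 when wild-type replicate 1 or 2 was left out, beside 6.81% and 2.79%. Without regard to size, both mutant arrays lay above every wild-type array for 7 ATG genes, or 19.4% beside 8.35% of all genes, and below for 1, ATG10, beside 7.30%. The 7 were ATG7, ATG9, ATG11, ATG14, ATG16, ATG17 and ATG23, of which only ATG7 and ATG11 passed the filter at the 25th percentile.

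**Figure D1:**
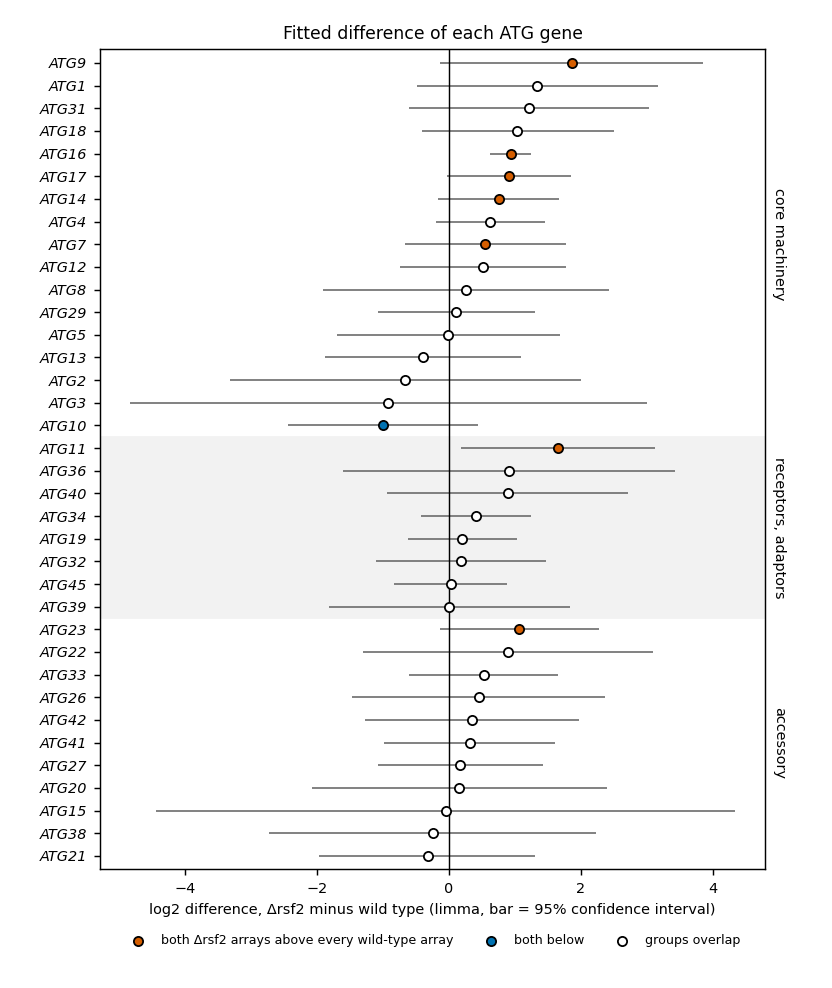
Fitted log2 difference of each ATG gene, Δrsf2 minus wild type, with its 95% confidence interval from limma; orange points mark the 7 genes whose Δrsf2 arrays both lay above every wild-type array and the blue point ATG10, whose arrays both lay below. Apart from ATG11 and ATG16, every interval includes 0.

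Among the 5 genes of the Atg1 kinase complex 4 were higher by value, and the median log2 difference was 0.91. None of these 4 passed the filter at the 25th percentile of mean signal, and ATG13, the gene that passed, was lower by value. ATG17, the scaffold on which the complex assembles under starvation, read 69.5, 86.8 and 98.6 in the wild type, and the Δrsf2 arrays read 172 and 145. Both mutant arrays were thus above the wild type, 1.88-fold by geometric mean, with a log2 difference of 0.91 ± 0.36 (SE). ATG1, the protein kinase, read 24.2, 27.0 and 43.7 in the wild type, with 38.0 in Δrsf2 replicate 1 and 180 in replicate 2. Replicate 2 alone lay above the wild type; the difference was 1.34 ± 0.70, and 2 wild-type arrays were under the floor. ATG31, which links Atg29 to Atg17, read 51.7, 40.1 and 141 against 107 and 223, a difference of 1.22 ± 0.70 with overlap. ATG29 itself had a difference of 0.11 ± 0.46. ATG13, the subunit through which TORC1 acts on the kinase, went the other way by value. It read 332, 815 and 536 in wild-type cells and, in Δrsf2, 268 and 602, with replicate 1 below the wild type and replicate 2 inside it, a difference of -0.39 ± 0.57.

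The 3 core genes of membrane supply differed among themselves. ATG9, which encodes the lipid scramblase of the vesicles that seed the membrane, read 123, 41.2 and 50.8 in the wild type, and the Δrsf2 arrays read 414.5 and 129. Replicate 2 exceeded wild-type replicate 1 only narrowly, and the fitted difference was 1.86 ± 0.77 (SE), 3.63-fold. Under quantile normalisation the groups overlapped and the difference was 1.62. ATG18, which binds the phosphoinositide made by the kinase, read 76.1, 97.3 and 159 against 300 and 158, so that replicate 2 fell just inside the wild-type range. ATG2, the lipid transfer protein that Atg18 holds in place, read 21.97, 128 and 177 in wild-type cells and, in Δrsf2, 8.99 and 106, a difference of -0.66 ± 1.02.

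ATG14, the subunit that directs the phosphatidylinositol 3-kinase to autophagosome formation, was among the most even members. It read 104, 76.5 and 91.4 in the wild type, and the Δrsf2 arrays read 149 and 155. Both mutant arrays were above the wild type, 1.69-fold, with a log2 difference of 0.76 ± 0.35 (SE) and an adjusted p of 0.994 with limma. The values within the arrays of high and of low spike-in signal were 0.52 and 0.89.

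The 8 genes of the ubiquitin-like conjugation systems had a median log2 difference of 0.39, and 5 were higher by value. ATG8, whose product is attached to the membrane lipid phosphatidylethanolamine and recognised by receptors, showed the split between the mutant arrays in a gene whose wild-type arrays were close together. It read 1611, 1475 and 1657 in the wild type, 730 in Δrsf2 replicate 1 and 4900 in replicate 2. Replicate 1 was below and replicate 2 above every wild-type array, 6.72-fold apart, and the fitted difference of 0.26 ± 0.83 (SE) describes neither. ATG3, the enzyme that transfers Atg8 to the lipid, split the same way, with 142, 322 and 426 in wild-type cells and, in Δrsf2, 14.5 and 723. The value in replicate 1 lay under the floor. These splits ran with the ACT1 ratio of 4.91 in replicate 1, and the part of RNA quality in them was not tested.

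ATG10, the enzyme that transfers Atg12 to Atg5, was the one ATG gene lower in both mutant arrays. It read 254, 400 and 676 in the wild type, and the Δrsf2 arrays read 171 and 246. The groups did not overlap, and the signal was 1.99-fold lower, just short of the size rule, with an SE of 0.55 on the log2 scale. ATG7, the activating enzyme of both systems, read 132, 219 and 238 against 289 and 270, above the wild type in both mutant arrays by a difference of 0.55 ± 0.47. ATG16, which joins the Atg12-Atg5 conjugate into a larger complex, read 5.59, 18.7 and 25.1 in wild-type cells and, in Δrsf2, 48.4 and 59.9. All 3 wild-type arrays were under the floor, so it was at least 1.92-fold higher. Its unadjusted p of 6.21e-04, the smallest of the family, rests on wild-type values that the floor made equal, and with a floor at the 20th percentile the difference was 0.00.

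Of the other conjugation genes, ATG12 encodes the second ubiquitin-like protein and read 114, 168 and 217 in the wild type, and the Δrsf2 arrays read 213 and 249. Its mutant replicate 1 lay inside the wild-type range. ATG4, the protease that trims Atg8 and frees it from the membrane, read 43.1, 28.3 and 36.1 against 41.0 and 73.2, with replicate 2 alone above the wild type. ATG5, the partner of Atg12, read 290, 854 and 967 against 811 and 472, and both mutant arrays lay inside the wild-type range.

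All 8 receptors and adaptors of selective autophagy had a positive difference, 0.31 on the log2 scale at the median, but for 3 of them the difference was at most 0.18. ATG11 stood out in size. Its product is the scaffold that links cargo-bound receptors to the Atg1 kinase. It read 85.4, 143 and 201 in wild-type cells and, in Δrsf2, 540 and 336, so both mutant arrays were well above the wild type. The difference was 1.66 ± 0.57 (SE), 3.16-fold, with an unadjusted p of 0.0344 and an adjusted p of 0.994 with limma. It was 2.66 within the arrays of high spike-in signal and 0.99 within those of low signal, each with a single mutant array. The difference was positive in every alternative setting that kept the gene.

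ATG19 and ATG34 are paralogs that stand next to each other on the chromosome. Atg19 is the receptor that brings the aminopeptidase Ape1 to the vacuole in growing cells, and Atg34 carries alpha-mannosidase during starvation. ATG19 read 1004, 978 and 1005 in the wild type, and the Δrsf2 arrays read 860 and 1525, again below in replicate 1 and above in replicate 2. ATG34 read 1534, 1496 and 2045 against 1781 and 2780, with replicate 2 above the wild type. Their differences were 0.20 ± 0.32 (SE) and 0.41 ± 0.32, among the smallest errors of the family. A second probe set for ATG19 read 3.80 to 35.5 on all arrays and was not used.

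ATG32, the mitophagy receptor and the member tied most directly to respiring cells, read 181, 226 and 399 in wild-type cells and, in Δrsf2, 282 and 295. Both mutant arrays lay inside the wild-type range, and the difference was 0.18 ± 0.50 (SE), with a 95% interval from -1.10 to 1.47. ATG36, the receptor for peroxisomes, read 332, 79.4 and 290 against 182 and 755. ATG40, the receptor for the cortical endoplasmic reticulum, read 79.9, 87.9 and 147 against 99.9 and 353. In both genes replicate 2 was above the wild type while replicate 1 lay within it, and the differences were 0.91 ± 0.97 and 0.89 ± 0.70. ATG39, the receptor for the nuclear envelope, read 539, 1103 and 1749 against 601 and 1740. ATG45, a receptor for glycogen, read 484, 664 and 820 against 594 and 718. Neither left the wild-type range, with differences of 0.01 ± 0.71 and 0.03 ± 0.33.

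Of the 11 accessory genes 8 had a positive difference, the median being 0.32, and all 11 were higher in Δrsf2 replicate 2 than in replicate 1. ATG23, which helps Atg9 leave the Golgi, was even between the mutant arrays. It read 35.9, 50.2 and 92.4 in the wild type, and the Δrsf2 arrays read 111 and 121, a difference of 1.07 ± 0.46 (SE), 2.11-fold, with an adjusted p of 0.994 with limma. ATG27, a membrane protein that works with it, read 339, 412 and 565 against 324 and 716. ATG41, also needed for Atg9 movement, read 613, 481 and 649 against 436 and 1181. The last 2 genes were thus below the wild type in replicate 1 and above it in replicate 2.

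All 3 genes for breakdown inside the vacuole were above every wild-type array in Δrsf2 replicate 2. ATG15, the lipase that opens the inner membrane, read 97.2, 81.1 and 483 in the wild type, 19.0 in Δrsf2 replicate 1 and 806 in replicate 2. The mutant arrays were 28.7-fold apart with the first at the floor, and the wild type itself spread widely, so the difference of -0.05 had an SE of 1.69. Its 3 probe sets gave differences of -0.45, -0.05 and 0.51, and on each of them replicate 2 was above every wild-type array. ATG42, a carboxypeptidase, read 532, 460 and 695 against 369 and 1360. ATG22, which exports amino acids from the vacuole, read 101, 211 and 360 against 194 and 694.

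Other accessory genes followed replicate 2 or stayed within the wild type. ATG26, a sterol glucosyltransferase, read 196, 402 and 555 against 264 and 880. ATG20, a sorting nexin, read 27.7, 71.5 and 85.9 against 6.49 and 138, with replicate 1 and 1 wild-type array under the floor. ATG33, a mitochondrial membrane protein that takes part in mitophagy, read 2241, 917 and 1526 against 2070 and 2160. ATG38, which holds the kinase complex together, read 204, 707 and 1524 against 344 and 755, and ATG21, which helps Atg8 conjugation, 223, 503 and 636 against 232 and 474. For ATG33, ATG38 and ATG21 both mutant arrays lay inside the wild-type range.

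Array by array the picture was as follows. In Δrsf2 replicate 2, 24 of 36 ATG genes were above every wild-type array, 66.7% beside 28.4% of all genes, and 1 was below, beside 23.8% of all genes. By class these were 11 of 17 core genes, 5 of 8 receptors and adaptors and 8 of 11 accessory genes. In Δrsf2 replicate 1, 8 ATG genes were above every wild-type array, 22.2% beside 30.5% of all genes, and 9 below, where 26.9% of all genes were. For 7 genes replicate 1 was below and replicate 2 above the whole wild type, 19.4% beside 8.45% of all genes: ATG3, ATG8, ATG15, ATG19, ATG27, ATG41 and ATG42. Replicate 2 exceeded replicate 1 for 30 of 36 ATG genes, 83.3% beside 50.4% of all genes. The count of 24 was 25 with quantile normalisation, beside 31.7% of all genes, and 27 with arrays centred on their medians, beside 27.9%. Of the 25 ATG genes that passed the filter at the 25th percentile of mean signal it was 15, beside 28.4% of all genes that passed.

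**Figure D2:**
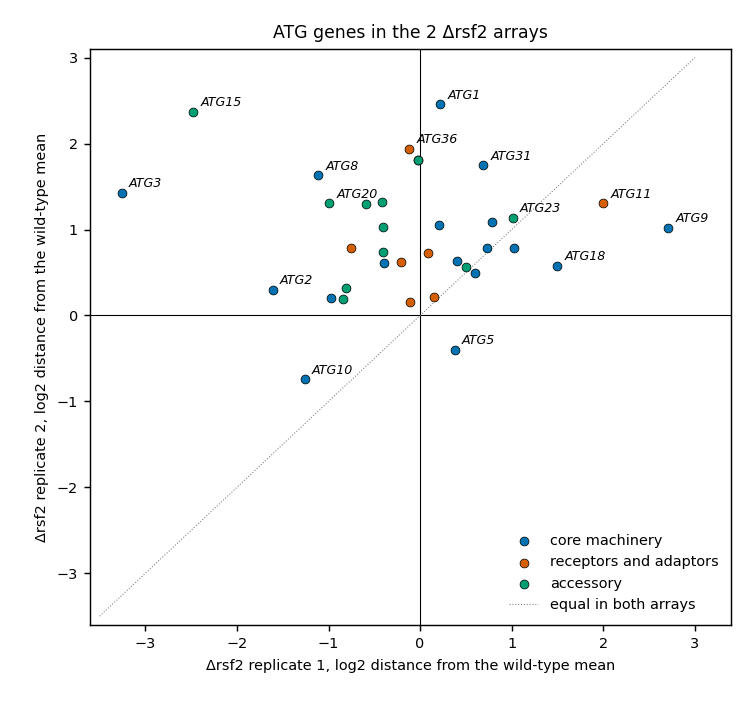
Log2 distance of each ATG gene from the wild-type mean in Δrsf2 replicate 1 (horizontal axis) and replicate 2 (vertical axis), coloured by class, with the dotted line where both are equal. All but 2 of the 36 points lie above 0 on the vertical axis, and 16 lie right of 0 on the horizontal one.

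The medians of the classes moved accordingly. For the core genes the median was 0.38 in Δrsf2 replicate 1 and 0.78 in replicate 2, and the wild-type arrays ran from -0.36 to 0.42. For receptors and adaptors it was -0.06 and 0.76 beside -0.37 to 0.55, and for accessory genes -0.42 and 1.14 beside -0.68 to 0.63. In each class replicate 1 therefore lay inside the range of the wild-type medians and replicate 2 above it. Over all 36 genes the wild-type medians rose from replicate 1 to 3, with -0.44, -0.05 and 0.55. For all genes measured they were -0.30, 0.05 and 0.22. The ACT1 ratio fell over the same arrays, 2.76, 2.28 and 1.69, and was 1.55 in Δrsf2 replicate 2. In Δrsf2 replicate 1 the ratio was 4.91 and the median of the 36 genes -0.07, against 0.79 in replicate 2. The part of RNA quality in these medians was not tested. Within the arrays of high spike-in signal the class medians of the differences were 0.52, 0.26 and 0.00, where all genes had 0.27. Within those of low signal they were 0.65, 0.65 and 0.87, where all genes had -0.05. Of the 36 genes, 25 passed the signal filter (8 core genes, 8 receptors and adaptors and 9 accessory genes), and those 8 core genes had a median difference of 0.13, against 0.55 for all 17.

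**Figure D3:**
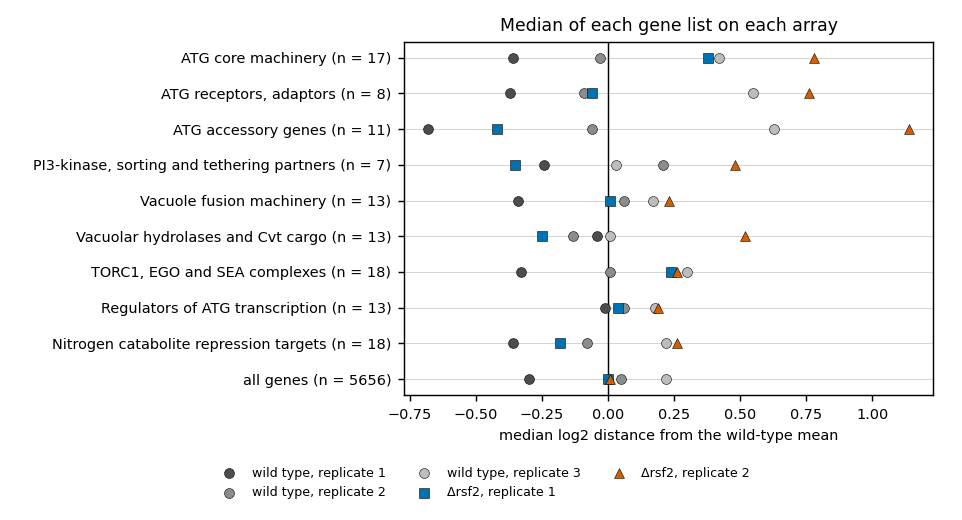
Median log2 distance from the wild-type mean of each gene list on each array, with wild-type arrays as grey circles and Δrsf2 replicates 1 and 2 as a blue square and an orange triangle. In all 3 ATG classes the orange triangle is the rightmost point, from 0.76 to 1.14, and the blue square lies among the circles.

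Over both mutant arrays together, genes that work with the ATG proteins had medians nearer to that of all genes. Of 7 partners in the kinase complex, sorting and tethering 3 were higher by value, and the median log2 difference was -0.06. VPS30, the Beclin-like subunit, was at 0.19 ± 0.29 (SE), and TRS85, part of the tether that brings Ypt1 to the site, at -0.45 ± 0.42 with both mutant arrays below the wild type. TRS85 was the 1 gene of the 7 with this pattern, beside 7.30% of all genes. Of 13 genes for fusion with the vacuole 8 were higher, with a median of 0.11. CCZ1, a subunit of the exchange factor for the vacuolar GTPase Ypt7, read 68.5, 77.1 and 121 in wild-type cells and, in Δrsf2, 132 and 175. Both mutant arrays were above the wild type there, and also for PEP5, a tethering subunit at 0.60 ± 0.22 with 1 wild-type array under the floor. Neither gene passed the filter at the 25th percentile of mean signal, and the 9 genes of the list that did had a median of -0.00. Of the 13 genes, 3 were above the wild type in both mutant arrays and 1 below, beside 8.35% and 7.30% of all genes. VPS33, also above, and VAM7, the gene below at -0.76 ± 0.52, are named here after their values were seen.

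Of 13 vacuolar hydrolases and their relatives 9 were higher by value, with a median of 0.20, and 1 was lower by the size rule, beside 2.49% of all genes. This was CPS1, a vacuolar carboxypeptidase, which read 120, 157 and 138 in the wild type, and the Δrsf2 arrays read 26.5 and 106, a log2 difference of -1.33 ± 0.64 (SE). CPS1 did not pass the filter at the 25th percentile of mean signal. Cargo enzymes of the selective route differed among themselves. AMS1, alpha-mannosidase, read 650, 696 and 986 against 771 and 2049, and APE4, an aspartyl aminopeptidase, 547, 656 and 784 against 754 and 1086, with replicate 2 above the wild type in both. APE1, the cargo of Atg19, read 1343, 776 and 814 against 697 and 1177, with replicate 1 below the wild type and replicate 2 inside it. The peptidase gene LAP3 was at -0.10 ± 0.42; APE1 and LAP3 are named here after their values were seen. The median of this list was -0.25 in Δrsf2 replicate 1 and 0.52 in replicate 2. Replicate 2 exceeded replicate 1 for 11 of the 13 genes, 84.6% beside 83.3% of the ATG genes and 50.4% of all genes. In the other lists of this kind the share was 38.5% to 66.7%. For 7 of the 13 replicate 2 was above every wild-type array, beside 28.4% of all genes. For 4 replicate 1 was also below every wild-type array, beside 8.45% of all genes with this split.

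Upstream of the ATG proteins, 12 of 18 genes of TORC1 and its regulators were higher by value, with a median of 0.23. By the size rule 2 were higher and 1 lower, where 3.22% and 2.49% of all genes were. NPR2 and NPR3 encode subunits of the complex that restrains TORC1 when amino acids run low. NPR2 read 21.3, 37.2 and 41.4 in wild-type cells and, in Δrsf2, 94.4 and 93.8, a log2 difference of 1.42 ± 0.22 (SE), with 1 wild-type array under the floor. NPR3 read 56.4, 55.6 and 62.7 against 134 and 86.8, at 0.89 ± 0.29. Neither gene passed the filter at the 25th percentile of mean signal, and the 13 genes of the list that did had a median of 0.08. RTC1, a subunit of the complex that counteracts them, read 77.5, 91.1 and 107 against 344 and 161, at 1.37 ± 0.51. All 3, named for having the smallest p of the list, were above the wild type in both mutant arrays. Yet their adjusted p-values with limma were 0.514, 0.994 and 0.994. Of the 18 genes, 5 were above the wild type in both mutant arrays and 1 below, beside 8.35% and 7.30% of all genes. The gene on the lower side was KOG1, the TORC1 subunit that recruits substrates, named here after its values were seen. It read 164, 362 and 219 against 110 and 115, at -1.07 ± 0.52.

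Transcription regulators that act on ATG genes had a median of 0.16, with 7 of 13 higher by value and 0 past the size rule in either direction. RPH1, a histone demethylase known to repress ATG genes, read 274, 179 and 290 in the wild type, and the Δrsf2 arrays read 669 and 332, at 0.96 ± 0.49 (SE). The stress factors MSN4 and MSN2 were at 0.66 ± 0.41 and -0.39 ± 0.26, the first above and the second below the wild type in both mutant arrays. Of the 13 genes, 2 were above the wild type in both mutant arrays and 1 below, beside 8.35% and 7.30% of all genes. Genes repressed by good nitrogen sources, which are induced on nitrogen starvation as ATG genes are, showed no common direction, with 9 of 18 higher by value, a median of 0.05 and 0 past the size rule. GAP1, the general amino acid permease, read 1488, 1271 and 1040 in wild-type cells and, in Δrsf2, 1085 and 2567. DAL7, of allantoin use, and the GATA repressor gene DAL80 were at 0.81 and 0.69, both with overlapping groups. With limma 0 genes of these 6 lists had an adjusted p under 0.05.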

How the data were processed

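Each deposited file holds 1 intensity per probe set on a linear scale. The submitters' processing notes name MAS5 for this step, but its version and settings are not given in the sources used here. On 4 arrays the 2% trimmed mean was 500.3 to 500.7 and on that of Δrsf2 replicate 1 it was 100.1, so each array was rescaled to 500. Of 9335 probe sets 6504 had 1 gene in the platform annotation, and all of these were found in a table of yeast genes (assembly R64), used for names and neighbours only. Of 5656 genes 315 had several probe sets, of which the brightest on average was kept. Signals under the 10th percentile (28.1, not a detection limit) were set to it and log2 was taken.

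Groups came from the sample titles. They were compared with limma 3.58.1 in R 4.3.3 (lmFit, eBayes with trend, group as the only term, no signal filter) over all 5 arrays, with Benjamini-Hochberg adjustment over 5656 genes. What the fit can find was simulated for this layout of 3 wild-type and 2 mutant arrays only. In 10 simulated draws with 200 changed genes the fit found 0.8% of those changed 2-fold and 13.2% of those changed 4-fold. It found 34% of 8-fold and 53.2% of 16-fold changes, and called a mean of 4.6 unchanged genes per draw. The changed genes were drawn from those with a wild-type mean above 8 on the log2 scale. The rates therefore do not describe dimmer genes, many ATG genes among them. The simulated noise was independent between genes, with the same SD in both groups and no shifts of whole arrays. In the data the median SD of all genes was 0.46 in the wild type and 0.59 in Δrsf2 on the log2 scale. The rates may therefore differ from those of the real arrays. Errors are SE of fitted differences, and folds are ratios of geometric means of floored signals. All ATG genes are named, and in each further list the 3 genes of smallest p. The members and lists were chosen with earlier results of these data known, and ATG45 was added to the receptors when the annotation showed its symbol. Replicate numbers gave correlations of array deviations of 0.30 and -0.07 in 2 pairs and were not taken to pair the cultures. The deviations of the 2 mutant arrays are mirror images, so these values are not independent. Wild-type replicate 3 with Δrsf2 replicate 2 gave 0.47. Alternatives covered the normalisation, floor, filter, probe sets, variance model, array weights, blocks and left-out arrays.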

Additional observations from a re-analysis of the deposited data

How the results depend on the processing

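Over 20 alternatives 65 of 970 gene values changed sign, 58 of them among the 640 of the ATG genes, and 15 ATG genes never did. The cause was not tested. The other genes were RSF2 and those of smallest p in each further list, so their reversals cannot be set against those of the ATG genes. The signal filters alone and the fit without trend leave a difference unchanged, so no sign could turn there. The 1.5-fold threshold gave no gene values. The replicate numbers were not taken as pairing. With the replicate block, 0 ATG genes had an adjusted p under 0.05 and 31 were higher by value, beside 59.2% of all genes. ATG5, ATG15 and ATG38 turned to 0.31, 0.76 and 0.43. Blocking on the spike-in set, these 3 were 0.10, 0.39 and 0.06. Quantile normalisation gave 1 ATG gene higher and 1 lower by the size rule, 14 below every wild-type array in Δrsf2 replicate 1, ATG29 at -0.14 and ATG39 at -0.03. Centring arrays on their medians, which moved the median of all genes to -0.16, gave 1 higher, 1 lower and 17 below, with ATG19 at -0.01, ATG27 at -0.04, ATG29 at -0.10, ATG32 at -0.02, ATG39 at -0.19, ATG45 at -0.18 and VPS30 at -0.02. Over all genes the size rule was met by 3.22% higher and 2.49% lower, by 2.00% and 4.01% with quantile normalisation and by 1.64% and 5.02% with median centring. The share of all genes below every wild-type array in Δrsf2 replicate 1 was computed only for the fit reported here, at 26.9%. A filter at the 25th percentile tests fewer genes, 25 of them ATG genes. It gave 1 higher by the size rule, 18 higher by value, 15 above every wild-type array in replicate 2 and 3 in replicate 1, and a core median of 0.13. At the 50th percentile, with 15 ATG genes left, these were 0, 10, 7, 0 and -0.20. Of all genes past the first filter 1.74% were higher by the size rule, 47.8% by value and 28.4% above in replicate 2. Past the second these shares were 0.88%, 41.8% and 27.5%. The share above in replicate 1 was not computed under a filter. Quantile normalisation with the 25th percentile filter, added after seeing the data, gave 1 higher, 1 lower, 16 by value, 15 in replicate 2, a core median of 0.15 and ATG39 at -0.03. Of all genes in that fit 1.53% were higher and 3.89% lower by the size rule, 43.45% higher by value and 31.1% above in replicate 2. A 1.5-fold threshold gave 6 higher and 1 lower, and the share of all genes at that threshold was not computed. Array weights gave 1 lower, beside 2.86% of all genes, with ATG15 at 0.48, ATG20 at -0.18, ATG39 at -0.17 and ATG45 at -0.05. A floor at the 20th percentile gave 4 genes past the adjusted threshold, ATG15 0.60 and ATG29 -0.01. Without a floor ATG20 was -0.81, and with the mean of probe sets ATG15 was 0.00.

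With the 2 arrays of high spike-in signal left out 38 genes and 1 ATG gene (ATG16) passed, 12 ATG genes were higher and 1 lower by the size rule, beside 8.29% and 11.4% of all genes, and values were 0.97 for ATG3, 2.02 for ATG15, -0.03 for ATG32, -0.04 for ATG45, 0.56 for VAC8, -0.19 for DAL7 and -0.15 for DAL80. Leaving out each array in turn gave 0 to 157 genes and 0 to 1 ATG genes (ATG16) past the threshold, with 33 genes without Δrsf2 replicate 1 and 157 without replicate 2. A lone mutant array is then assumed to vary like the wild type. ATG genes by the size rule were 2 to 17 higher (8 without wild-type replicate 3, 17 without Δrsf2 replicate 1, 5 without replicate 2) and 0 to 3 lower, and 16 to 34 were higher by value. Of all genes, 3.11% to 14.16% were higher and 2.72% to 11.63% lower by the size rule in these fits. By value 41.73% to 57.51% of all genes were higher. The ranges of differences were -1.62 to 0.31 for ATG2, -3.27 to 1.43 for ATG3, -0.55 to 0.38 for ATG5, -1.11 to 1.63 for ATG8, -0.97 to 0.20 for ATG13, -0.53 to 2.37 for ATG15, -0.21 to 0.62 for ATG19 and -0.99 to 1.31 for ATG20. They were -0.84 to 0.19 for ATG21, -0.02 to 1.81 for ATG22 and ATG40, -0.42 to 1.32 for ATG26, -0.40 to 0.74 for ATG27, -0.39 to 0.61 for ATG29, -0.06 to 0.51 for ATG32 and -0.12 to 1.94 for ATG36. They were -1.03 to 0.43 for ATG38, -0.75 to 0.78 for ATG39, -0.40 to 1.03 for ATG41, -0.59 to 1.30 for ATG42 and -0.18 to 0.20 for ATG45. VAC8 ran from -3.20 to 1.05, GAP1 from -0.21 to 1.03 and DAL80 from -0.44 to 1.84.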

Other observations

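Some genes outside the ATG family also differed between the mutant arrays. VAC8, a vacuolar membrane protein that anchors the site where autophagosomes form, had a scaled signal of 132, 404 and 320 in the wild type, 6.99 in Δrsf2 replicate 1 and 531 in replicate 2. PEP3, a subunit of the vacuolar tether, went the other way, with 3.70 to 13.8 in the wild type, 107 in Δrsf2 replicate 1 and 17.1 in replicate 2. The a-factor gene MFA2 was at 13184 in Δrsf2 replicate 1, at 1155 in replicate 2 and between 1027 and 4250 in the wild type, while the MATa genes BAR1 and STE6 differed by -0.07 and -0.10 on the log2 scale. Of the MATalpha genes, STE3 ran from 80.3 to 127 over all arrays and the alpha-factor genes from 6.80 to 45.0.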
